A study of Mus musculus with 6 samples.

Results

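The genes described here are the 37 genes carried by mouse mitochondrial DNA (mtDNA), found as every gene of the deposited count table whose Ensembl identifier maps to a symbol starting with mt-. They make up 37 of 48795 genes in the table and comprise 13 protein genes, 2 ribosomal RNA (rRNA) genes and 22 transfer RNA (tRNA) genes. Quadriceps muscle of male C57BL/6 mice aged 20 weeks was profiled by RNA sequencing in 3 libraries of MERKO mice, whose genotype is given as muscle-specific Er_alpha-/-, and 3 libraries of wildtype mice, called control. The labels do not give the promoter that drives the deletion, and nothing states whether the 3 libraries of a group came from separate animals, so the p-values reflect variation among the 6 libraries, which may be technical. The question taken up here is whether transcripts of the mitochondrial genome itself differed between the genotypes.

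Mitochondria keep a small circular genome whose strands are each copied into long precursor transcripts. The tRNAs sit between most of the rRNA and protein genes, and cutting them out releases the other RNAs. The proteins are core subunits of respiratory complexes I, III, IV and of ATP synthase, which skeletal muscle uses to make ATP by oxidative phosphorylation. The other subunits of these complexes, and every protein that copies mtDNA or processes its RNA, come from nuclear genes. Nuclear chromosomes also carry inserted copies of mtDNA, and a read that matches such a copy and the mtDNA equally well has no single origin.

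The libraries held between 14935532 and 44282448 counts. The nuclear rRNA gene model CT010467.1 took from 0.0433% of counts in control 3 to 32.4% in MERKO 2. It was left out, so that CPM below means a gene's count scaled to its library's remaining total (10647524 to 44263280), the usual CPM unit. Esr1, the targeted gene, stood at 8.90, 10.5, 8.64 CPM (MERKO 1, 2, 3) against 30.8, 39.99, 38.3 CPM (control 1, 2, 3), which matched the labels. All 10 skeletal muscle markers were present, with summed levels between 155321 and 196698 CPM per library. Markers of other tissue differed between libraries. Slow-fibre markers (8 of 8 present) summed to 714 CPM in MERKO 1 and 691 CPM in control 1, against 49.4 to 67.5 CPM in the other libraries. Adipocyte markers (8 of 8) summed to 126 to 179 CPM in MERKO and 181 to 561 CPM in control, without overlap. MERKO 1 (179.0 CPM) and control 1 (181.4 CPM) nearly met, and 11.9% of all 13686 genes tested did not overlap between the groups. Tendon markers (8 of 8) summed to 95.3 to 520.1 CPM in MERKO and 34.8 to 102 CPM in control. The part of these tissues in the values below was not tested.

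Counts on mtDNA genes formed a sizeable share of each library, and the genotypes overlapped. The share of counts on the 37 genes was 11.6%, 7.26%, 13.6% (MERKO 1, 2, 3) against 11.7%, 9.23%, 10.6% (control 1, 2, 3). The means were 10.8% ± 3.26 and 10.5% ± 1.22 (SD, n = 3 each). MERKO held both the lowest and the highest library, and its range enclosed that of control. Exact binomial 95% intervals of these shares were at most 0.0345 percentage points wide, which is narrower than the spread between libraries. These intervals cover counting error only, since reads without molecular identifiers are not independent molecules. In whole muscle, the number of cells of a type and the RNA per cell both enter such a share and cannot be told apart.

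By counts, the rRNA class was the largest. The protein-gene sums rest on the reads placed, and 6 of the 13 protein genes together held only 11.8 to 18.9 CPM per library. All of these but mt-Atp8 share nearly all of their sequence with nuclear copies, as described below. The rank of the classes therefore cannot be read as one of transcript levels. The summed rRNA level was 74117, 49233, 99359 CPM (MERKO 1, 2, 3) against 72542, 63859, 77188 CPM (control 1, 2, 3). The summed protein-gene level was 41615, 23311, 36969 CPM (MERKO 1, 2, 3) against 43975, 28426, 29295 CPM (control 1, 2, 3). The 22 tRNA genes together gave only 16.6, 6.01, 11.0 CPM (MERKO 1, 2, 3) against 19.0, 9.16, 9.24 CPM (control 1, 2, 3). In each class the groups overlapped, and the lowest library was MERKO 2. The log2 ratio of the group means, MERKO over control, was 0.06 for rRNA, 0.0028 for protein genes and -0.15 for tRNA. The corresponding pooled SDs of log2 CPM between libraries of a group were 0.37, 0.40 and 0.67. Leaving out single libraries moved these ratios to between -0.21 and 0.28, between -0.17 and 0.23 and between -0.55 and 0.29, so that each class could be given either sign.

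**Figure D1:**
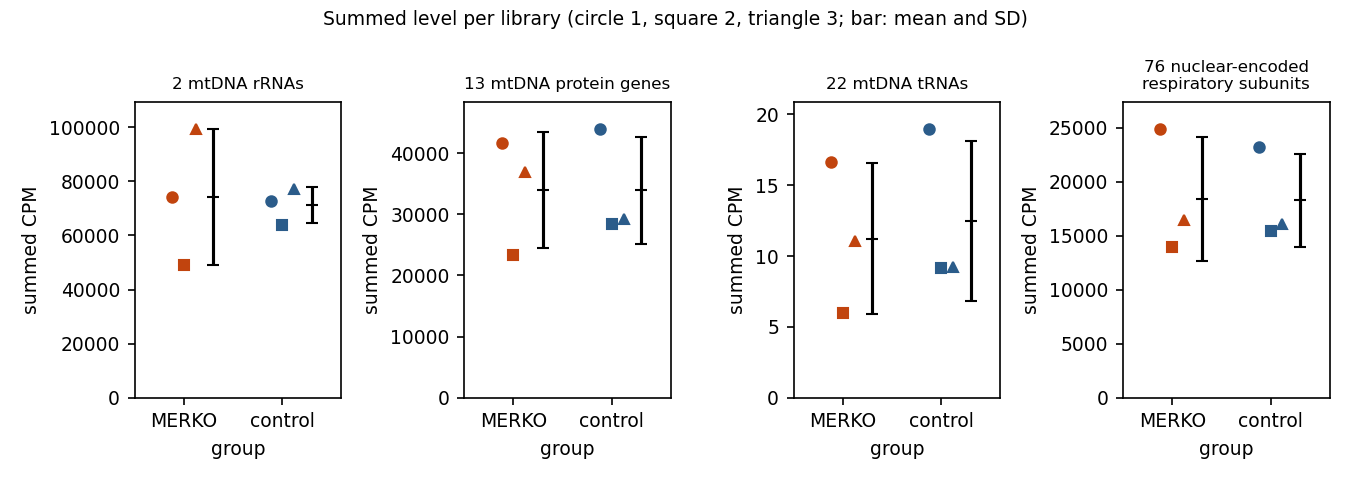
Summed CPM (y axes, starting at 0) of the mtDNA rRNA, protein and tRNA genes and of 76 nuclear-encoded respiratory subunits in each MERKO and control library (x axes). Bars give mean and SD, and in each panel the MERKO and control points overlap.

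Reads concentrated on very few members. mt-Rnr2, the large-subunit rRNA of the mitochondrial ribosome, and mt-Co1, the catalytic subunit of cytochrome c oxidase (complex IV), together made up between 79.5% and 85.4% of mtDNA counts. Per kilobase of gene, mt-Rnr2 stood at 39774 ± 8470 CPM per kb and mt-Co1 at 16522 ± 4346 CPM per kb (mean and SD of all 6 libraries). mt-Rnr1, the small-subunit rRNA, followed at 10255 ± 3874, then mt-Nd1 of complex I at 4451 ± 924 and mt-Cytb, the mtDNA-encoded subunit of complex III, at 2052 ± 474 CPM per kb. Next were the complex I subunits mt-Nd2 at 718 ± 211, mt-Nd4 at 339 ± 89.2 and mt-Nd5 at 288 ± 87.0 CPM per kb. mt-Nd6, the one protein gene on the minus strand, had 88.4 ± 22.9 CPM per kb. The ranges over libraries overlapped between mt-Co1 and mt-Rnr1 (11235 to 21777 and 7111 to 17972 CPM per kb) and between mt-Nd4 and mt-Nd5 (242 to 469 and 156 to 416). The remaining protein genes, mt-Co3, mt-Co2, mt-Nd3, mt-Atp6, mt-Atp8 and mt-Nd4l, did not exceed 11.97 CPM per kb in any library.

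**Figure D2:**
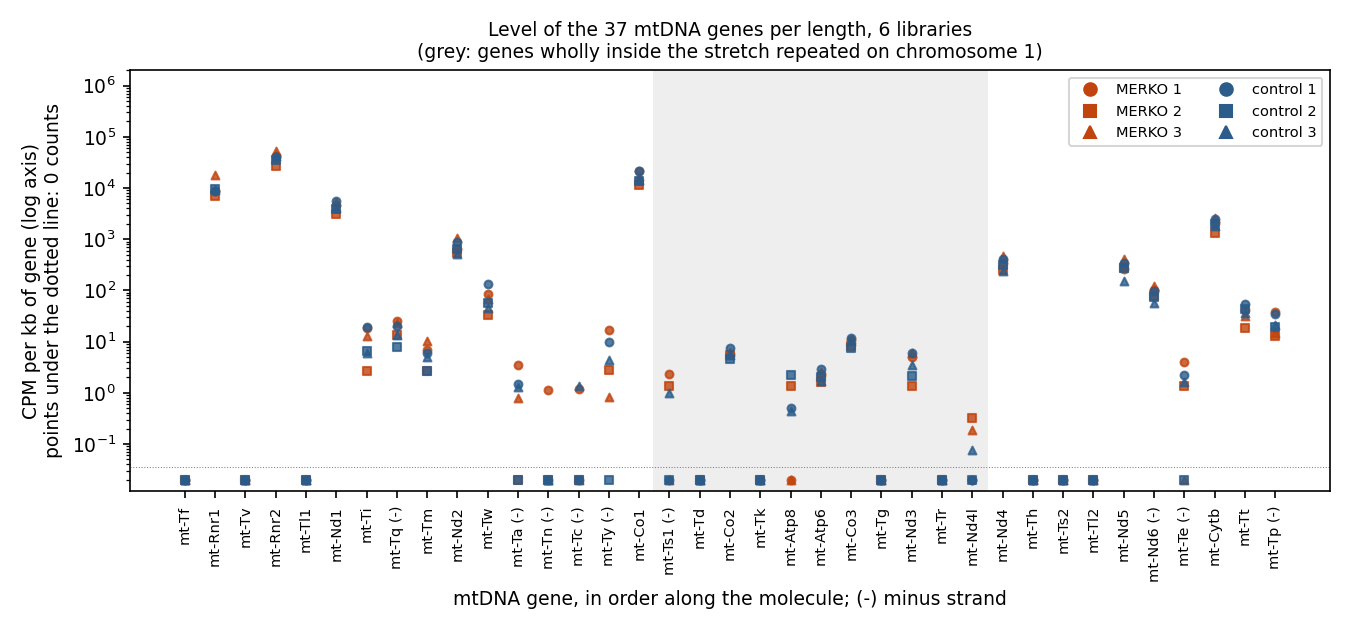
CPM per kb (log y axis) of each of the 37 mtDNA genes in the 6 libraries, with genes in their order along mtDNA on the x axis. The 6 protein genes inside the grey stretch stay at or below 11.97 CPM per kb, while the other 7 protein genes are at 57.3 or above in every library.

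The 6 faint protein genes lie within one stretch of mtDNA, and all but mt-Atp8 share nearly all of their letters with annotated nuclear copies. On GRCm38, 7 annotated pseudogenes at chr1:24611535-24616197 follow the order of mtDNA from within mt-Co1 to within mt-Nd4, which is chrM:6390-11042. The stretch wholly contains 11 of the 37 genes, of which 6 encode proteins. Gm28661 matched mt-Co2 at 681 of 681 aligned bases, Gm10925 matched mt-Atp6 at 678 of 678, Gm28437 matched mt-Co3 at 783 of 783, Gm10222 matched mt-Nd4l at 294 of 294 and Gm28438 matched mt-Nd3 at 344 of 345. Gm28439 matched the first 876 bases of mt-Nd4 without a difference, and Gm29216 matched the end of mt-Co1 at 482 of 483. Gm13341 and Gm13340 on chromosome 2 are less alike, with 656 of 672 aligned bases identical to mt-Co2 and 1508 of 1545 identical to mt-Co1. No copy of mt-Atp8 was among the transcripts searched, but it lies between mt-Co2 and mt-Atp6, whose copies are 233 bases apart on chromosome 1 against 230 bases between the genes in mtDNA.

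The stretches below show how closely 2 mtDNA genes and their copies match, from the GENCODE M21 transcripts of GRCm38, written 5′ to 3′ in the sense of the mtDNA gene, with capitals for bases that differ from it. They are mt-Co2 (chrM:7457-7536, plus strand) with Gm28661 (chr1:24615042-24615121, minus strand) and Gm13341 (chr2:22587451-22587530, minus strand), and mt-Co1 (chrM:6390-6469, plus strand) with Gm29216 (chr1:24616109-24616188, minus strand) and Gm13340 (chr2:22588506-22588585, minus strand). The mt-Co2 window is the one in which Gm13341 differs most.
mt-Co2: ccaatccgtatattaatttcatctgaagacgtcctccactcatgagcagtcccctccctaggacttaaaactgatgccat
Gm28661: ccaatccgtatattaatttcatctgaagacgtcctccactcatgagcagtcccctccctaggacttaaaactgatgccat
Gm13341: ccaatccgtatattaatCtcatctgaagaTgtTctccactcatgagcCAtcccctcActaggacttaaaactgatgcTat
mt-Co1: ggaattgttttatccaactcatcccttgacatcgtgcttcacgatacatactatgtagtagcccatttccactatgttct
Gm29216: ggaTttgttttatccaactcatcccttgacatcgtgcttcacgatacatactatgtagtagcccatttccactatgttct
Gm13340: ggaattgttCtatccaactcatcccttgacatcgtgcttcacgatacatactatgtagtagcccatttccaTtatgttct
In these windows the chromosome 1 copies carry 0 and 1 differing bases and the chromosome 2 copies 7 and 2.

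To relate the levels to ambiguous placement, each gene was cut into all of its 50-base windows, and each window was sought on either strand in all transcripts of nuclear genes. All 635 windows of mt-Co2 were found there, as were 99.9% for mt-Co3, 99.5% for mt-Atp6, 98.8% for mt-Nd4l and 98.0% for mt-Nd3. For mt-Nd4 the share was 62.2% and for mt-Co1 51.1%, while mt-Nd2 (8.19%), mt-Nd5 (7.61%) and mt-Rnr2 (1.04%) shared little. For mt-Rnr1, mt-Nd1, mt-Nd6, mt-Cytb, mt-Atp8 and all tRNAs it was 0. Only annotated transcripts were searched, so copies outside them, such as between the chromosome 1 pseudogenes, were not seen. With 100-base windows the share was 99.5% for mt-Co2, 60.8% for mt-Nd4 and 30.8% for mt-Co1. Neither the read length nor the handling of such reads is stated in the available sources. The low counts of mt-Co2, mt-Co3, mt-Atp6, mt-Nd3 and mt-Nd4l therefore cannot be read as low transcript levels. The same holds for mt-Atp8, since the sequence between the copies of its neighbours was not searched. Counted per 1000 windows that were not found in nuclear transcripts, mt-Co1 stood at 34920 CPM and mt-Nd4 at 931 CPM, against 41478 for mt-Rnr2, 821 for mt-Nd2 and 320 for mt-Nd5. That scale assumes that no read from a shared window was counted on the gene, which was not tested. On that scale the ranges of mt-Co1 (23745 to 46027) and mt-Rnr2 (27978 to 54183) overlapped.

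Some reads were counted on the chromosome 1 copies, and whether they came from mtDNA was not tested. mt-Co3 had 208, 70, 157 counts (MERKO 1, 2, 3) against 182, 65, 360 (control 1, 2, 3), whereas its copy Gm28437 had 752, 183, 435 (MERKO 1, 2, 3) against 647, 196, 1078 (control 1, 2, 3). The copy thus held from 2.61 to 3.62 times the counts of the gene. The same ratio was 2.15 to 3.27 for Gm28661 over mt-Co2, 4.10 to 5.42 for Gm10925 over mt-Atp6 and 1.42 to 5.20 for Gm28438 over mt-Nd3. Gm29216 held 0.000727 to 0.000828 counts per count of mt-Co1. That ratio is not on a par with the others, since Gm29216 covers only the end of mt-Co1, which was counted over its whole length. Added together, the 6 faint protein genes and the chromosome 1 copies, found for all of them but mt-Atp8, came to 46.1 to 77.5 CPM per library. None of the 8 copies with most counts passed the edgeR test of MERKO against control, a count model fitted across all genes. Their log2 fold changes, MERKO minus control, lay between -0.10 for Gm28438 and 0.95 for Gm20594, which matches 16 windows of mt-Rnr2, and their adjusted p-values between 0.697 and 0.993.

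**Figure D3:**
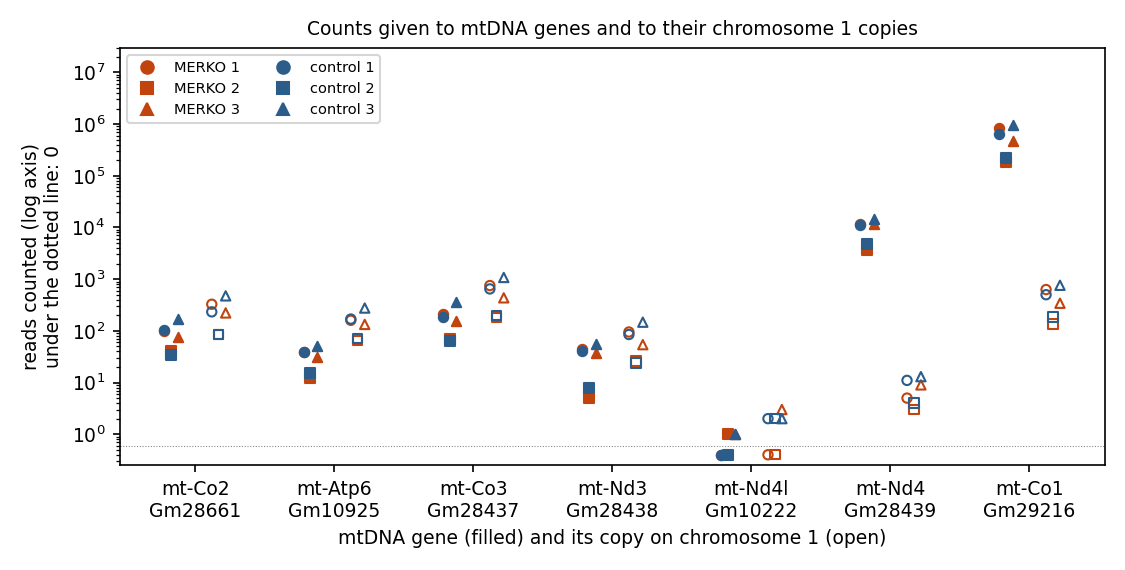
Reads counted (log y axis) for 7 mtDNA genes (filled) and their annotated chromosome 1 copies (open) in each library, by gene pair (x axis). For mt-Co2, mt-Atp6, mt-Co3 and mt-Nd3 the copy holds more counts than the gene in every library. For mt-Co1 and mt-Nd4 it holds far fewer, but these copies cover only part of the gene.

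Members also overlap each other. Of 36 neighbouring pairs 9 overlap in the annotation. A read in an overlap fits both genes if they lie on the same strand or if the counting ignored strand. The longest overlap joins the ATP synthase subunit genes mt-Atp8 (chrM:7766-7969) and mt-Atp6 (chrM:7927-8607). The last 70 bases of mt-Atp8 (chrM:7900-7969) and the first 70 of mt-Atp6 (chrM:7927-7996), plus strand, are shown with their 43 shared bases in capitals, beside the last 40 bases of mt-Nd4l (chrM:10134-10173) and the first 40 of mt-Nd4 (chrM:10167-10206), which share 7.
mt-Atp8: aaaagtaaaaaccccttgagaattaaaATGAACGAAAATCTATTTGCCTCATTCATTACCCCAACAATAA
mt-Atp6: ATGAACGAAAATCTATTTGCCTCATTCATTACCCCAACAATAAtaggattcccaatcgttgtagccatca
mt-Nd4l: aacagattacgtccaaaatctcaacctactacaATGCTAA
mt-Nd4: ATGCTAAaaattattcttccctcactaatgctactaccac
mt-Atp8 had 0, 3, 0 counts (MERKO 1, 2, 3) against 2, 5, 4 (control 1, 2, 3), and mt-Nd4l had 0, 1, 1 against 0, 0, 1. Neither was tested. mt-Nd6 (chrM:13552-14070, minus strand) overlaps the end of mt-Nd5 by 14 bases. The strand setting of the counting is not given, so reads of mt-Nd6 and of transcripts antisense to it may not have been told apart.

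No member passed the comparison of MERKO with control. Of the 37 genes 18 passed the filter on low counts, namely both rRNAs, 11 protein genes and 5 tRNAs. In the edgeR quasi-likelihood test 0 of these 18 had an adjusted p under 0.05 and 0 had an unadjusted p under 0.05. Over all 13686 genes tested, 0.00731% were called and 7.37% had an unadjusted p under 0.05. DESeq2 called 0 of 27 members (0.0888% of all its tested genes were called) and limma-voom 0 of 18. Log2 fold changes were above 0 for 10 members and below 0 for 8, with a median of 0.02 against 0.0022 over all genes tested, of which 50.5% were above 0. MERKO and control CPM overlapped in all 18, whereas the groups did not overlap in 11.9% of all genes tested (4.82% higher and 7.12% lower in MERKO). The widest 95% interval belonged to mt-Ti, a tRNA with 2 to 32 counts per library, and ran from -1.23 to 1.66.

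**Figure D4:**
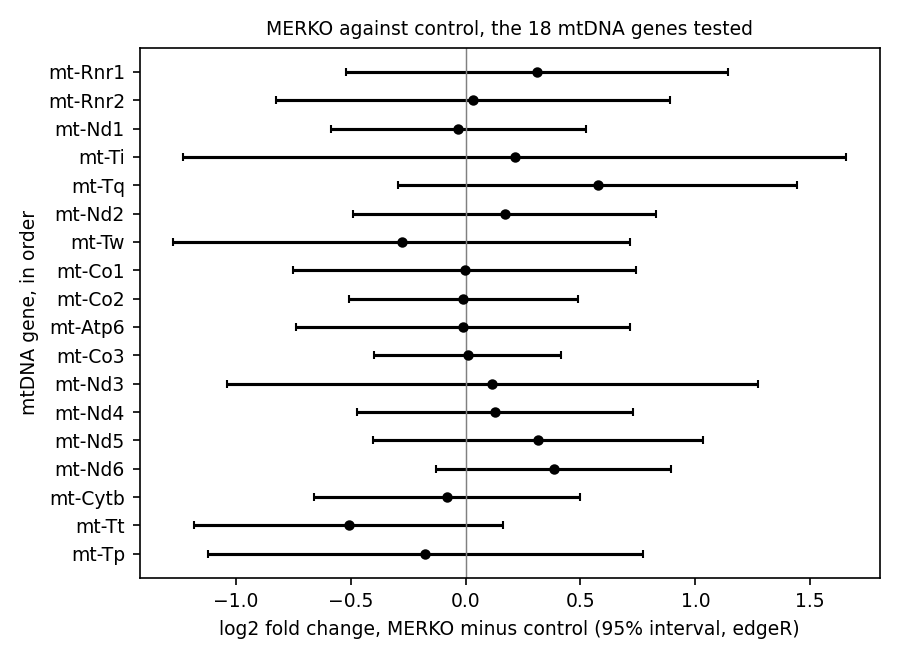
Log2 fold change, MERKO minus control, with 95% intervals from edgeR (x axis) for the 18 tested mtDNA genes in their order along mtDNA (y axis). Every interval includes 0.

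The rRNAs were examined first. mt-Rnr2 (chrM:1094-2675, plus strand) stood at 65729, 42442, 82196 CPM (MERKO 1, 2, 3) against 64048, 54707, 68411 CPM (control 1, 2, 3). Its lowest and highest libraries were both MERKO (log2 fold change 0.03, SE 0.37, 95% interval -0.83 to 0.89, edgeR adjusted p = 0.99). mt-Rnr1 (chrM:70-1024, plus strand) stood at 8388, 6791, 17163 CPM (MERKO 1, 2, 3) against 8494, 9152, 8777 CPM (control 1, 2, 3). MERKO 3 was well above the other 5 libraries, which lay within 6791 to 9152 CPM. The log2 fold change of mt-Rnr1 was 0.31 (SE 0.36, interval -0.52 to 1.14, edgeR adjusted p = 0.853), and it was -0.24 without MERKO 3. The rRNAs did not move in proportion, with 0.128, 0.16, 0.209 counts of mt-Rnr1 per count of mt-Rnr2 (MERKO 1, 2, 3) against 0.133, 0.167, 0.128 (control 1, 2, 3).

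Complex I is the assembly with most mtDNA-encoded subunits, and its genes differed mainly between libraries. mt-Nd1 (chrM:2751-3707) stood at 4460, 2968, 5184 CPM (MERKO 1, 2, 3) against 5250, 3734, 3964 CPM (control 1, 2, 3). mt-Nd2 (chrM:3914-4951) stood at 678, 571, 1106 CPM (MERKO 1, 2, 3) against 904, 678, 534 CPM (control 1, 2, 3). mt-Nd4 (chrM:10167-11544) stood at 464, 349, 646 CPM (MERKO 1, 2, 3) against 572, 439, 334 CPM (control 1, 2, 3). MERKO 3 and control 1 were the highest libraries for these 3 genes, and MERKO 2 or control 3 the lowest. mt-Nd5 (chrM:11742-13565) stood at 473, 506, 759 CPM (MERKO 1, 2, 3) against 625, 504, 285 CPM (control 1, 2, 3). mt-Nd6 stood at 52.1, 40.2, 63.0 CPM (MERKO 1, 2, 3) against 51.6, 38.8, 29.7 CPM (control 1, 2, 3). For both, control 3 was lowest and MERKO 3 highest, and the other libraries of the groups interleaved. The log2 fold changes were -0.03 for mt-Nd1, 0.17 for mt-Nd2, 0.13 for mt-Nd4, 0.31 for mt-Nd5 (interval -0.40 to 1.03) and 0.38 for mt-Nd6 (interval -0.13 to 0.89), with edgeR adjusted p-values between 0.710 and 0.983. Without control 3 that of mt-Nd5 was 0.057 and that of mt-Nd6 was 0.20. mt-Nd3 (chrM:9459-9806) had 44, 5, 38 counts (MERKO 1, 2, 3) against 41, 8, 55 (control 1, 2, 3), so its log2 fold change of 0.12 rests on few reads.

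mt-Cytb (chrM:14145-15288) stood at 2361, 1506, 2964 CPM (MERKO 1, 2, 3) against 2908, 2229, 2114 CPM (control 1, 2, 3). The groups overlapped widely, with MERKO 2 lowest (log2 fold change -0.08, SE 0.25, edgeR adjusted p = 0.952). In complex IV, mt-Co1 (chrM:5328-6872) stood at 33111, 17358, 26231 CPM (MERKO 1, 2, 3) against 33646, 20792, 22020 CPM (control 1, 2, 3). MERKO 1 and control 1 were nearly equal at the top, and MERKO 2 and control 2 were the lowest of their groups (log2 fold change -0.0042, SE 0.33, interval -0.75 to 0.74, edgeR adjusted p = 0.999). mt-Co2 (chrM:7013-7696) and mt-Co3 (chrM:8607-9390) are the other core subunits, and their few placed reads gave 3.15 to 5.26 and 6.02 to 9.39 CPM over the libraries. For ATP synthase, mt-Atp6, which forms part of its proton channel, had 1.13 to 2.01 CPM. Log2 fold changes of mt-Co2, mt-Co3 and mt-Atp6 lay between -0.01 and 0.01, from the few reads placed on them.

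The libraries thus differed in the make-up of their mtDNA reads as well as in the amount. Counts of mt-Nd2, mt-Nd4, mt-Nd5 and mt-Nd6 together were 4.01%, 6.29%, 6.96% of protein-gene counts (MERKO 1, 2, 3) against 4.89%, 5.84%, 4.04% (control 1, 2, 3). mt-Co1 was 79.6%, 74.5%, 71.0% (MERKO 1, 2, 3) against 76.5%, 73.1%, 75.2% (control 1, 2, 3). MERKO 1 thus had the highest share of mt-Co1 and the lowest of those 4 complex I genes, and MERKO 3 the reverse. Per protein-gene count, rRNA counts were 1.78, 2.11, 2.69 (MERKO 1, 2, 3) against 1.65, 2.25, 2.63 (control 1, 2, 3), with low values in library 1 and high values in library 3 of each group. Control 3 combined the smallest share of CT010467.1 with the lowest CPM of mt-Nd2, mt-Nd4, mt-Nd5 and mt-Nd6, but not of mt-Co1, mt-Cytb or the rRNAs. Among 153 ratios of counts between pairs of tested members, 15 (9.8%) did not overlap between the groups. In CPM, 11.9% of all genes tested did not overlap. Of the 17 ratios with mt-Nd6, 5 did not overlap. Counts of mt-Nd6 per count of mt-Cytb were 0.0220, 0.0267, 0.0212 (MERKO 1, 2, 3) against 0.0177, 0.0174, 0.0141 (control 1, 2, 3). Ratios that share a gene are not independent, and none was tested. The part of RNA quality or library preparation in these differences was not tested.

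**Figure D5:**
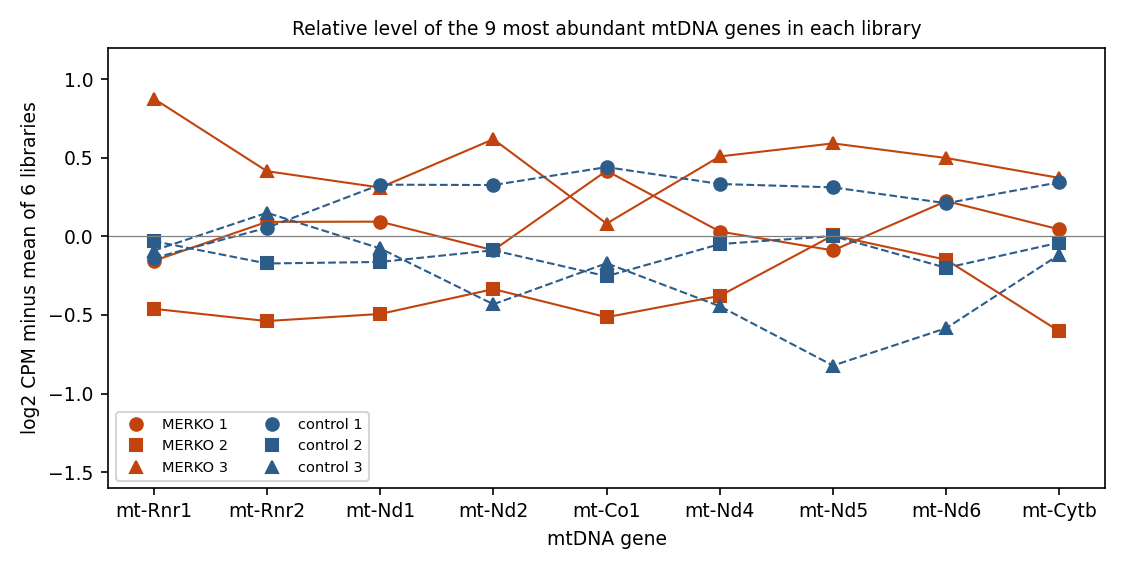
Log2 CPM minus the mean of the 6 libraries (y axis) for the 9 most abundant mtDNA genes (x axis), 1 line per library, MERKO solid and control dashed. MERKO 3 is the highest or next to highest except at mt-Co1, MERKO 2 is low at most genes, and control 3 is lowest at mt-Nd2, mt-Nd4, mt-Nd5 and mt-Nd6.

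Transfer RNA genes had very few reads, and whether library preparation lowered their counts was not tested. All 8 tRNA genes on the minus strand had at least 1 count in some library, against 4 of 14 on the plus strand. The other 10 plus-strand tRNAs had 0 counts in every library, which allows up to 3 counts per library, or 0.0678 to 0.282 CPM. Those at 0 include mt-Tl1 and mt-Tv, which flank mt-Rnr2, although the rRNA beside them had up to 3028117 counts. Another 4 of them, mt-Td, mt-Tk, mt-Tg and mt-Tr, lie wholly inside chrM:6390-11042, the stretch with copies on chromosome 1. Whether ambiguous placement lowered their counts was not tested. Only mt-Tw and mt-Tt had at least 10 counts in every library. The sequences of the most counted tRNAs and of 2 that had none are given in their own sense, 5′ to 3′, with capitals for bases that the annotation also gives to a neighbouring gene.
mt-Tw: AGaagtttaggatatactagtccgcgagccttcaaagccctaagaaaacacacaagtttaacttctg
mt-Tt: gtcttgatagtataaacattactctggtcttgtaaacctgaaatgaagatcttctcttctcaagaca
mt-Tp: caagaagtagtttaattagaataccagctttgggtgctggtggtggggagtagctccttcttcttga
mt-Tq: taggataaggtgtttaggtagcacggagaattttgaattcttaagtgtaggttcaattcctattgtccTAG
mt-Ti: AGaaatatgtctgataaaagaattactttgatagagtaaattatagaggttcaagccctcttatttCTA
mt-Tl1: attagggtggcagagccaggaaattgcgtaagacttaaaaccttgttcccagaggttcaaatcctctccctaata
mt-Td: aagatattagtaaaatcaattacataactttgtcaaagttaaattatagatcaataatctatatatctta
These are mt-Tw (chrM:4950-5016, plus strand), mt-Tt (chrM:15289-15355, plus), mt-Tp (chrM:15356-15422, minus), mt-Tq (chrM:3772-3842, minus), mt-Ti (chrM:3706-3774, plus), mt-Tl1 (chrM:2676-2750, plus) and mt-Td (chrM:6942-7011, plus). The 5 tested tRNA genes are 67 to 71 bases long, and a read that reaches into a neighbour is not specific to the tRNA. Without a known strand setting, reads of a tRNA gene and of the opposite strand may not have been told apart.

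The tRNA for tryptophan, mt-Tw, stood at 5.77, 2.25, 4.52 CPM (MERKO 1, 2, 3) against 8.82, 3.795, 3.00 CPM (control 1, 2, 3). The groups overlapped, and control 1 was highest. The tRNA for threonine, mt-Tt, stood at 2.81, 1.22, 2.12 CPM (MERKO 1, 2, 3) against 3.71, 2.87, 2.44 CPM (control 1, 2, 3), where only MERKO 1 reached into the control range (log2 fold change -0.51, SE 0.29, interval -1.18 to 0.16, edgeR adjusted p = 0.706). The tRNA for glutamine, mt-Tq, stood at 1.804, 0.94, 1.67 CPM (MERKO 1, 2, 3) against 1.44, 0.56, 0.95 CPM (control 1, 2, 3) (log2 fold change 0.57, SE 0.38, edgeR adjusted p = 0.735). The tRNAs mt-Tp and mt-Ti had log2 fold changes of -0.18 and 0.21. The remaining 7 tRNAs with counts, mt-Tm, mt-Ta, mt-Tn, mt-Tc, mt-Ty, mt-Ts1 and mt-Te, had at most 28 counts in a library, and none passed the filter.

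The nuclear genes that work with mtDNA were set beside it. Of 76 nuclear-encoded respiratory subunits tested, 25 were above and 51 below 0 in log2 fold change, with a median of -0.03, where 50.5% of all genes tested were above 0. In the edgeR test 0 of the 76 passed and 0 had an unadjusted p under 0.05, against 0.00731% and 7.37% of all genes tested. Their summed level was 24904, 13955, 16465 CPM (MERKO 1, 2, 3) against 23265, 15489, 16104 CPM (control 1, 2, 3). The libraries numbered 1, which also had the high slow-fibre markers, were the highest of both groups, and whether fibre type sets this was not tested. The summed mtDNA protein genes stood at 1.67, 1.67 and 2.25 times the nuclear-encoded subunits in MERKO and at 1.89, 1.84 and 1.82 times in control. The control ratios lay between those of the MERKO libraries, and the means were 1.86 ± 0.33 and 1.85 ± 0.0372 (SD, n = 3 each). The difference in spread was not tested. mt-Co1 made up 71.0% to 79.6% of the protein-gene counts, and the sum covers only reads placed on mtDNA, so the ratio mainly follows mt-Co1.

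A list of 55 symbols of nuclear genes for upkeep, transcription and RNA processing of mtDNA had 52 tested members. Of these, 24 were above and 28 below 0, with a median log2 fold change of -0.04. None passed the edgeR test, where the lowest adjusted p was 0.659, and 2 of 52, Slirp and Trmt10c, had an unadjusted p under 0.05, a smaller share than the 7.37% of all genes tested. The groups did not overlap in 2 of 52, Fastkd3 (lower in MERKO) and Primpol (higher, named after its values were seen), again a smaller share than the 11.9% of all genes tested. By the naming rule the 5 genes with the lowest p are given as values, not as changes. The lowest p was that of Slirp, whose product binds mitochondrial mRNAs together with that of Lrpprc. Slirp stood at 22.005, 15.9, 20.6 CPM (MERKO 1, 2, 3) against 27.6, 21.0, 25.7 CPM (control 1, 2, 3), and only MERKO 1 reached into the control range (log2 fold change -0.34, interval -0.63 to -0.05). Next was Trmt10c, a subunit of the mitochondrial RNase P that cuts tRNA ends, at 20.5, 16.6 and 17.6 CPM in MERKO, against control levels of 21.5, 20.1 and 22.5 CPM (log2 fold change -0.22, interval -0.43 to -0.0138, edgeR adjusted p = 0.667). Fastkd3, Trmt5 and Fastkd2 followed with log2 fold changes of -0.26, -0.27 and -0.16. Lrpprc stood at 181, 114, 113 CPM (MERKO 1, 2, 3) against 145, 115, 90.6 CPM (control 1, 2, 3), which overlapped. Polrmt, the mitochondrial RNA polymerase, and its initiation factors Tfam and Tfb2m had log2 fold changes of 0.05, -0.09 and -0.09. Twnk and Polg, the helicase and polymerase that replicate mtDNA, each had 0.08. The edgeR adjusted p-values of these 5 genes lay between 0.857 and 0.917, and such values do not show that expression was the same.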

How the data were processed

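Read counts per gene were measured by RNA sequencing (Trizol RNA, Illumina TruSeq RNA kit, per the labels' protocols). The authors deposited 1 table of raw counts for 48795 genes and 6 libraries. Per the submitters' processing notes the tools were HTSeq 0.9.1, STAR 2.5.2b and DESeq and the builds GRCm38 and mm10, with no roles given. Annotation release, strand setting and the handling of multiply placed or ambiguous reads: not given in the sources used. Reads dropped for ambiguity lower the counts of the genes concerned.

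Groups came from sample titles. Symbols matched 48349 identifiers. Positions and transcript sequences are from GENCODE M21 (GRCm38). CT010467.1 was left out. Genes were filtered by filterByExpr, scaled by TMM and tested by quasi-likelihood (edgeR 4.0.16, R 4.3.3), genotype being the sole term. P-values were Benjamini-Hochberg adjusted over 13686 genes, with a threshold of 0.05. CPM carry no TMM factor. Members, lists and tests were chosen with earlier results of these data known. Each 50-base window (also 75 and 100) of a member was matched exactly, on both strands, to the transcripts of nuclear genes. All 37 members are accounted for, by values where they had at least 10 counts in every library or turned a result, otherwise by range. From the list of 55 symbols the 5 lowest p and 7 fixed genes are named, with Slirp in both sets. Primpol is named in addition, for its lack of overlap. Alternatives used DESeq2 1.42.0, limma-voom (limma 3.58.1), other scalings and filters, a replicate block and left-out libraries. Code was tested on 5 simulated data sets with 200 of 13686 genes changed in each. It recovered 7.65%, 50.3% and 88.6% of genes changed 1.5-fold, 2-fold and 4-fold, and 8.45% of its calls were false. The absence of calls among members therefore does not exclude changes of these smaller sizes.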

Additional observations from a re-analysis of the deposited data

How the results depend on the processing

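Of 18 settings, none called an mtDNA gene, and the lowest adjusted p among them was 0.452 (mt-Tt, edgeR with the replicate block). Genes called among all tested numbered 1 with the settings of the report, 23 with DESeq2, 152 without a filter, 51 with the block and 11 without MERKO 3, with 0 to 2 when any other single library was left out. Same-numbered libraries correlated at 0.444, 0.162 and 0.0559 in their deviations from group means, and not every library correlated best with its own number, so the numbers were not taken as pairing. Class sums on TMM-scaled library sizes were added after seeing the data. The median log2 fold change of the tested members ranged from -0.17 to 0.27 when single libraries were left out. mt-Tq, mt-Nd5, mt-Nd6 and mt-Tt kept their direction in all settings. The other 14 tested members, mt-Rnr1 (0.31 in the report) among them, changed sign in at least 1 setting, and the cause was not tested. With limma-voom the log2 fold changes were -0.020 for mt-Rnr2, 0.052 for mt-Tw, 0.0044 for mt-Co2, 0.11 for mt-Atp6 and -0.0045 for mt-Co3. With the replicate block they were -0.013 for mt-Rnr2 and 0.0020 for mt-Atp6. Without number 2 of both groups they were 0.072 for mt-Nd1, 0.080 for mt-Co1, 0.075 for mt-Atp6, -0.033 for mt-Co3 and 0.094 for mt-Cytb. mt-Co1 had 0.0046 with RLE scaling, 0.0050 with no composition factor, 0.0055 with TMM from nuclear genes and 0.0061 with CT010467.1 kept. With at least 1 CPM in 3 libraries the values were 0.013 for mt-Co1, 0.0062 for mt-Co2 and 0.0090 for mt-Atp6. With counts of the nuclear copies added they were 0.12 for mt-Co2, -0.061 for mt-Co3 and -0.039 for mt-Nd3. Without a filter mt-Co3 had -0.019. Leaving out single libraries gave -0.24 to 0.53 for mt-Rnr1, -0.24 to 0.22 for mt-Rnr2, -0.25 to 0.14 for mt-Nd1, -0.20 to 0.39 for mt-Nd2, -0.26 to 0.53 for mt-Nd3, -0.17 to 0.34 for mt-Nd4, -0.36 to 0.11 for mt-Cytb, -0.14 to 0.25 for mt-Co1, -0.12 to 0.22 for mt-Co2, -0.12 to 0.16 for mt-Co3, -0.21 to 0.26 for mt-Atp6, -0.22 to 0.98 for mt-Ti, -0.59 to 0.36 for mt-Tw and -0.77 to 0.12 for mt-Tp.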
